A study of Mus musculus with 9 samples.

Results

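The T-cell receptor variable (V) genes were described in 9 mouse lymphomas as the rows of the count table whose symbol starts with Trav (alpha chain) or Trbv (beta chain) and that had at least 10 counts summed over the tumors. This gave 81 genes of the 41128 in the table, namely 60 of 109 Trav genes and 21 of 23 Trbv genes. Just inside the limit were Trav15d-1-dv6d-1 and Trav4-2 with 10 counts each, and just outside it were Trav6d-4 with 9 and Trbv21 with 8. RNA was sequenced from 3 Bcl6 lymphomas (Smc3 wt/wt) and 6 Smc3/Bcl6 lymphomas (Smc3 wt/-), with 1 library per tumor. All mice carried the IµBcl6 transgene, which keeps Bcl6 switched on in B cells, and 1 Cγ1-cre allele, which deletes the floxed Smc3 allele in B cells entering the germinal center. Both alleles therefore act on the B-cell lineage, and the T cells of these mice are host cells of the tumor-bearing lymph node. By the tissue labels, the first replicate of both genotypes came from a mesenteric lymph node and the remaining tumors from a lymph node without further detail. The paper gives the mesenteric lymph node as the source for both genotypes. Ages were not used here.

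A T-cell receptor gene is assembled in the thymus by joining V, diversity (beta chain only) and joining (J) segments, so that each T cell and its daughters transcribe the V gene they rearranged. The counts of V genes in a tissue therefore record which segments its T cells use. A population of many clones spreads its counts over many V genes, whereas the progeny of a single cell keep the same V gene. B cells assemble their heavy (Ighv) and kappa (Igkv) chains in the same way, and a B-cell lymphoma is usually descended from few cells. Counts per gene hold no junction sequence, so clones that share a V gene were not told apart here.

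All Trbv members lie on chromosome 6 between positions 40891229 and 41558452 and all Trav members on chromosome 14 between 52427928 and 53876752 (GRCm38, GENCODE M21). Each V gene consists of a short leader exon and the V exon, which encodes the variable domain. Large stretches of the Trav locus exist in several copies, marked d and n in the symbols, whereas the Trbv genes differ more from each other. The following stretches are the last bases of V exons, except that Trav11, whose V exon is 1 base longer than that of Trav11d, is shown without its last base. Capitals mark the bases that differ within a set. The Trbv12 and Trbv13 genes are shown because members of these subgroups led or held large shares in several tumors. Of the 120 bases printed for Trbv12-1 (chr6:41113948-41114067, plus strand) and Trbv12-2 (chr6:41119245-41119364, plus strand), 9 differed, and of the whole V exon of 293 bases, 32 differed.
Trbv12-1: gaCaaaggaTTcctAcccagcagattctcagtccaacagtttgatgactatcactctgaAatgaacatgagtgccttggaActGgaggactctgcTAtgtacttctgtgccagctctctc
Trbv12-2: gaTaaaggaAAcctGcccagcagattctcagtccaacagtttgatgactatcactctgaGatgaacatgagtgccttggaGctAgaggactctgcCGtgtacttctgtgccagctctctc
The Trbv13 genes (Trbv13-1 at chr6:41116349-41116468, Trbv13-2 at chr6:41121713-41121832 and Trbv13-3 at chr6:41130466-41130585, all on the plus strand) differed at 26 of the 120 bases.
Trbv13-1: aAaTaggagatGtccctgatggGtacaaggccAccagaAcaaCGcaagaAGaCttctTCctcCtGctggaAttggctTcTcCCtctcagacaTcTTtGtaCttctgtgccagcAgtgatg
Trbv13-2: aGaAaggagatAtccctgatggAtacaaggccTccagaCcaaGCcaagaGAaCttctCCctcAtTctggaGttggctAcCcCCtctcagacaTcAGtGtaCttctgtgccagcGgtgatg
Trbv13-3: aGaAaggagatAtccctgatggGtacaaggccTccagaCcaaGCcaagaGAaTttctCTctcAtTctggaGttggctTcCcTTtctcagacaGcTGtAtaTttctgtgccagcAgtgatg
Trav5-4 (chr14:53704395-53704514, plus strand), which took the largest share of any member in a tumor with at least 50 counts of its chain, differed from its copies Trav5n-4 (chr14:53313303-53313422) and Trav5d-4 (chr14:53002113-53002232) at 2 of 120 bases.
Trav5-4: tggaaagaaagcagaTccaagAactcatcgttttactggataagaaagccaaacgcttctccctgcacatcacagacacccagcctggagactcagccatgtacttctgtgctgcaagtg
Trav5n-4: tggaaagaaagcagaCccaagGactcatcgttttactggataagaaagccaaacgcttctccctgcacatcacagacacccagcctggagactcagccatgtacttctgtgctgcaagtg
Trav5d-4: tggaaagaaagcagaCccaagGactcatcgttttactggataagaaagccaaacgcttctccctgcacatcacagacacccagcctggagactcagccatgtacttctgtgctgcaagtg
Trav11 (chr14:53519739-53519858, plus strand) and Trav11d (chr14:52824793-52824912, plus strand) encode the alpha chain of invariant natural killer T (NKT) cells, and the printed bases were the same in both.
Trav11: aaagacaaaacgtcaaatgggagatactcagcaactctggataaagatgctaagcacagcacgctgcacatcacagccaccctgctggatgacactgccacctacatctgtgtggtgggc
Trav11d: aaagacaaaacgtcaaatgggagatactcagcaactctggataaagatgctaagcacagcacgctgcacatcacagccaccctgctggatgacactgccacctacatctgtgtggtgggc

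These copies set how well each gene could be counted. A window of 50 bases was called unique when it occurred in no other annotated Trav, Trbv or Trdv gene. All 21 Trbv members had unique windows over at least 90% of their length, against 9 of the 60 Trav members, whose median was 55.8%. Of the 109 Trav genes, 37 had 0 counts in the whole table, and 32 of these had under 1% of unique windows. Conversely, 35 Trav genes had under 1% of unique windows and 32 of them had 0 counts, with Trav7-2 (22 counts), Trav14d-1 (19 counts) and Trav7d-5 (11 counts) as the exceptions. Trav11 and Trav11d, with 0% of 50-base windows unique, were among the genes at 0 counts in all 9 tumors. Their 0 counts therefore do not show that the genes were unused. The shares of Trav genes below are shares of the assigned counts and not of all alpha-chain transcripts, whereas the Trbv shares were little touched by copies.

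T-cell receptor transcripts were counted in every tumor, at levels that differed more between tumors of 1 genotype than between genotypes. The summed Trbv level, in CPM (counts scaled to the library size by edgeR's TMM method), was 13.8, 310 and 193 in Bcl6 tumors 1 to 3. In Smc3/Bcl6 tumors 1 to 6 it was 3.33, 395, 266, 11.2, 67.9 and 5.198. Bcl6 tumors 2 and 3 and Smc3/Bcl6 tumors 2, 3 and 5 were therefore high, and Bcl6 tumor 1 and Smc3/Bcl6 tumors 1, 4 and 6 were low, so the genotypes overlapped. The summed Trav level was lower, at 2.47, 77.1 and 47.4 CPM in the Bcl6 tumors and at 0.416, 51.9, 67.5, 5.39, 24.0 and 1.399 CPM in the Smc3/Bcl6 tumors, with the same tumors high and low. In counts, this was between 48 and 5743 for Trbv and between 6 and 1427 for Trav. In these bulk samples, fewer T cells and less receptor RNA per T cell cannot be told apart. The labelled tissue held both lineages, since 4 B-cell markers (Ms4a1, Cd79a, Cd79b and Pax5) summed to between 1360 and 6236 CPM and 8 T-cell markers to between 120.03 and 2767 CPM.

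**Figure D1:**
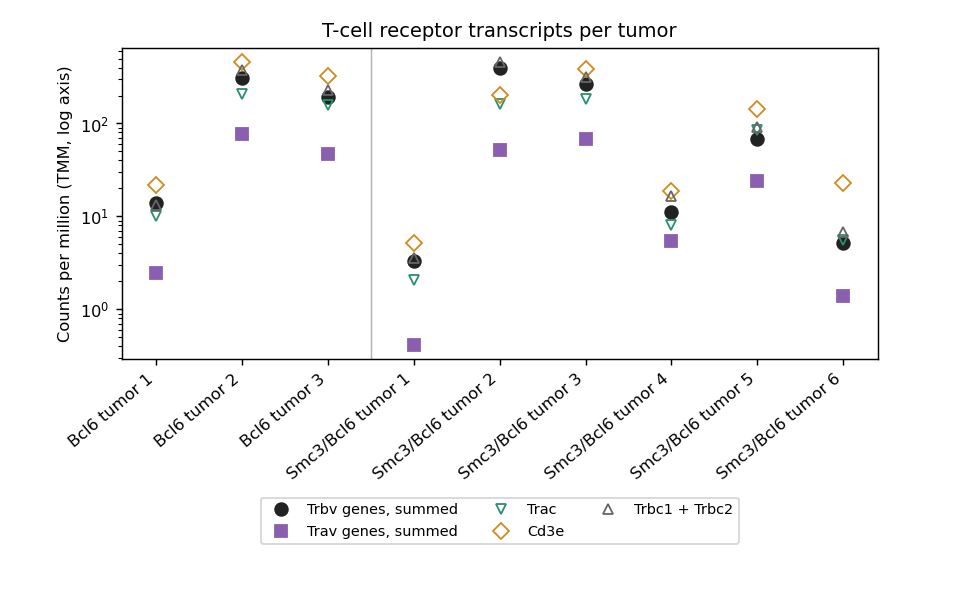
Summed Trbv and Trav levels, the constant genes Trac and Trbc1 + Trbc2, and Cd3e in each of the 9 tumors, in CPM (TMM-scaled) on a log axis, 1 point per library. Trbv ran from 3.33 to 395 CPM and moved with its constant genes, and in Smc3/Bcl6 tumor 2 Cd3e lay below Trbv, unlike in the other 8 tumors.

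V gene counts followed those of the constant genes to which they are spliced. For each 100 counts of Trbc1 and Trbc2, the beta-chain constant genes, the tumors had between 67.1 (Smc3/Bcl6 tumor 4) and 105 (Bcl6 tumor 1) Trbv counts. Trav counts were fewer against Trac, the alpha-chain constant gene, with between 20 and 37.1 for each 100 Trac counts in 8 tumors and 66.9 in Smc3/Bcl6 tumor 4, where the ratio rests on 81 and 121 counts. The library of Smc3/Bcl6 tumor 2 stood apart in its scaling (TMM factor 0.693, against 0.964 to 1.10 in the other 8). There, Trbv stood at 193 counts for each 100 of Cd3e, a T-cell signalling gene, against between 22.8 and 69.4 elsewhere, while its ratio to the beta constant genes (86.1) lay within the range of the others. For each 100 counts of Cd3d, another T-cell signalling gene, Trbv stood at 90.9 in this tumor. That lay within the 72.7 to 123 of the others, so the departure was seen against Cd3e and not against Cd3d. The part of library quality in these levels was not tested. Shares within a chain compare V genes of similar coding length in the same library (335 to 372 coding bases for Trbv). Exon lengths differed more, from 335 bases for Trbv20 and Trbv30 to 566 for Trbv19. The shares given for single tumors were not divided by length.

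The beta chain was spread over nearly all of its V genes. Of the 21 Trbv members, 14 had counts in all 9 tumors, and 19 to 21 had a count in the 8 tumors other than Smc3/Bcl6 tumor 1, which had 48 Trbv counts on 14 genes. Genes missing from a tumor included rare ones, such as Trbv30 with 17 counts in total and Trbv23 with 110, and also Trbv12-2, the most counted member with 2082, which had 0 of 48 counts in Smc3/Bcl6 tumor 1 (up to 6.25% allowed). No Trbv gene held over 29.5% of a tumor's Trbv counts in the 8 tumors with at least 50, and the leading gene held a median of 16.6%. The 3 leading genes together held between 32.5% and 49.0%. All intervals given for shares are 95% Wilson intervals and cover counting error only.

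**Figure D2:**
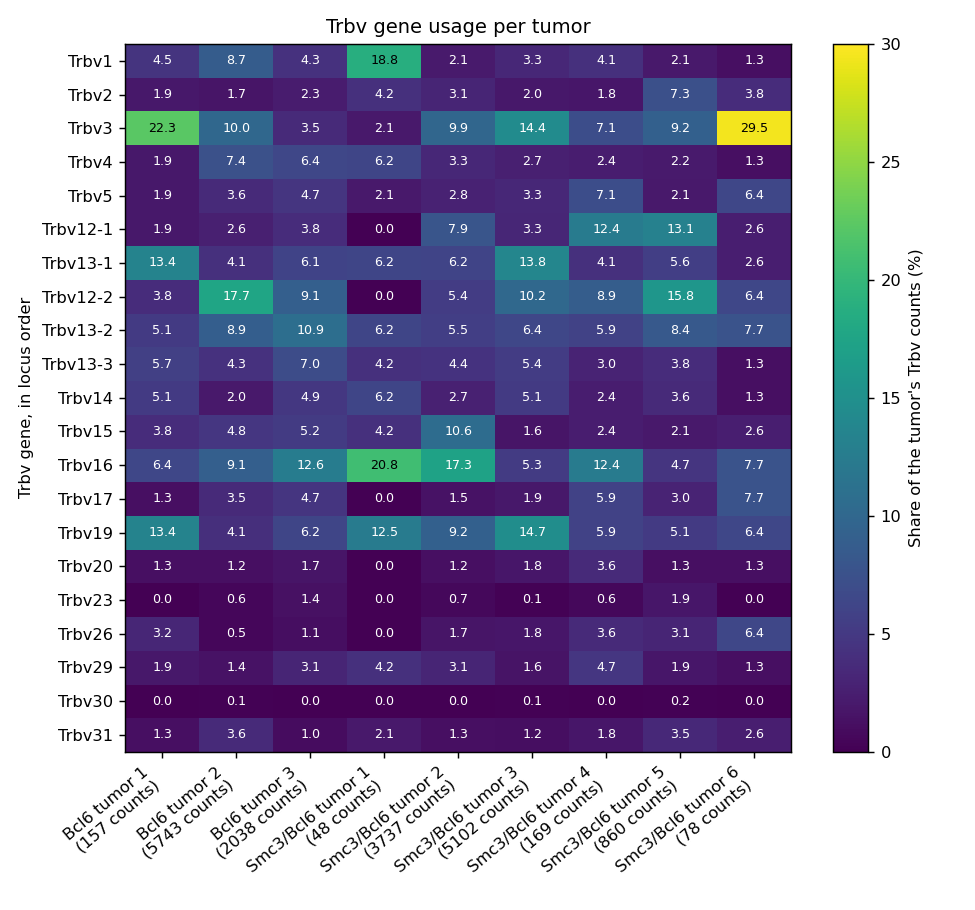
Share of each of the 21 Trbv genes (rows, in locus order) in the Trbv counts of each tumor (columns, with the number of counts), in percent. Trbv3, Trbv12-2, Trbv16 and Trbv19 led in most columns, with different leaders in different tumors of both genotypes.

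Different tumors had different leading Trbv genes. Trbv3 led in Bcl6 tumor 1 with 35 of 157 counts (22.3%, interval 16.5% to 29.4%) and in Smc3/Bcl6 tumor 6 with 23 of 78 (29.5%, 20.5% to 40.4%). Both tumors were among those with few Trbv counts. Trbv12-2 led in Bcl6 tumor 2 with 1015 of 5743 counts (17.7%, 16.7% to 18.7%) and in Smc3/Bcl6 tumor 5 with 136 of 860 (15.8%, 13.5% to 18.4%). Trbv16 led in Bcl6 tumor 3 with 256 of 2038 (12.6%, 11.2% to 14.1%) and in Smc3/Bcl6 tumor 2 with 648 of 3737 (17.3%, 16.2% to 18.6%). The same leader thus appeared in a tumor of each genotype 3 times. Trbv19 led in Smc3/Bcl6 tumor 3 with 748 of 5102 (14.7%, 13.7% to 15.7%), closely followed by Trbv3 with 737, and in Smc3/Bcl6 tumor 4 Trbv12-1 and Trbv16 tied at 21 of 169. This gave 5 different leaders, Trbv12-1 included, in the 8 tumors.

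Over the 8 tumors with at least 50 Trbv counts, Trbv3 had the highest mean share, 13.2%, followed by Trbv12-2 (9.65%), Trbv16 (9.43%), Trbv19 (8.13%), Trbv13-2 (7.35%), Trbv13-1 (6.98%) and Trbv12-1 (5.96%). Divided by coding length, Trbv3 (13.2%) was followed by Trbv16 (9.48%) and Trbv12-2 (9.07%), so these neighbours changed places. Divided by exon length, Trbv3 (11.7%), Trbv12-2 (9.94%) and Trbv16 (9.39%) kept their order. Trbv19 (5.75%) then fell below Trbv13-2 (8.58%), Trbv13-1 (7.64%) and Trbv12-1 (6.07%), so its place depends on the length used. In the 5 tumors with at least 500 Trbv counts, an alternative added after seeing the data, Trbv12-2 had the highest mean share (11.6%), followed by Trbv16 (9.78%) and Trbv3 (9.41%), so the first place of Trbv3 depends on the 3 tumors with fewer counts, Bcl6 tumor 1 and Smc3/Bcl6 tumors 4 and 6. These genes also varied between tumors. Trbv3 ranged from 3.53% to 29.5% and Trbv12-2 from 3.82% to 17.7%, ranges that overlapped those of the genes next to them in the order. Trbv13-2, which is used by many invariant NKT cells together with Trbv29 and Trbv1, was the steadiest of the frequent genes, between 5.10% and 10.9%. Trbv29 ranged from 1.28% to 4.73% and Trbv1 from 1.28% to 8.71%, with Bcl6 tumor 2 the highest for Trbv1 at 500 of 5743 counts. Within the Trbv13 subgroup, the 3 genes together took between 11.5% and 25.5%, and the 2 Trbv12 genes between 5.73% and 29.0%, in these 8 tumors. Across the 21 genes, the mean share was lower toward the 3′ end of the locus (Spearman's rho -0.54 with start position, a description over genes that share the same libraries).

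In the 5 tumors with at least 500 Trbv counts (Bcl6 tumors 2 and 3 and Smc3/Bcl6 tumors 2, 3 and 5), the differences between tumors were wider than counting error. For 19 of the 21 genes, the Wilson interval of the highest tumor lay above that of the lowest. Trbv15 held 10.6% in Smc3/Bcl6 tumor 2 and between 1.65% and 5.201% in the other 4. Trbv16 held 17.3% in that tumor and 4.65% in Smc3/Bcl6 tumor 5. Trbv13-1 held 13.8% in Smc3/Bcl6 tumor 3 and 4.14% in Bcl6 tumor 2. The tumors nonetheless shared most of their Trbv profile. The overlap of 2 tumors, the sum over genes of the smaller share, was between 68.0% and 76.8% in the 10 pairs of these 5 tumors (median 70.1%).

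The alpha chain was also spread over many genes, with 1 exception. Bcl6 tumor 2 had counts on 59 of the 60 Trav members and Bcl6 tumor 3 and Smc3/Bcl6 tumor 3 on 58 each. Only Trav15-1-dv6-1 and Trav21-dv12 had counts in all 9 tumors, 2 of the 60 members. Bcl6 tumor 1 (28 counts) and Smc3/Bcl6 tumors 1 (6) and 6 (21) had under 50 Trav counts, and their shares are not interpreted. In the other 6, the leading gene held between 7.78% and 37.8% (median 16.7%), and 5 different genes led.

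**Figure D3:**
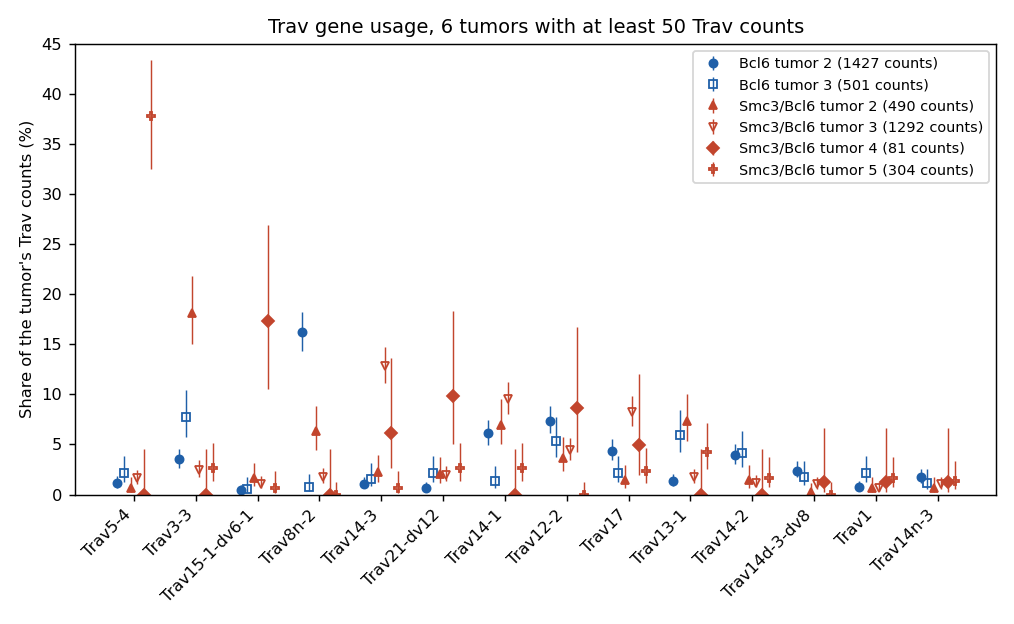
Shares of the named Trav genes in the Trav counts of the 6 tumors with at least 50 of them, in percent, with 95% Wilson intervals (bars) for counting error. Trav5-4 in Smc3/Bcl6 tumor 5 stood at 37.8%, and the other tumors lay between 0% and 2.20% for this gene.

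Trav5-4 had 115 of the 304 Trav counts in Smc3/Bcl6 tumor 5 (37.8%, interval 32.6% to 43.4%). In the other 5 tumors it had 16 of 1427, 11 of 501, 3 of 490, 21 of 1292 and 0 of 81 counts, that is at most 2.20%, and 0 of 81 allows a share of up to 3.70%. Smc3/Bcl6 tumor 5 thus had the highest share, and its ratio to the next tumor, 17.2, was the largest of the Trav genes for which a ratio could be formed in these 6 tumors. Its copy-rich sequence left 55.8% of its 50-base windows unique, in all tumors alike. In the same tumor, Trbv12-2 and Trbv12-1 together held 29.0% of Trbv counts, the highest of the 8 tumors. The J genes were not used to choose the members, but Traj45 is described because it led in this tumor. Traj45 had 31 of 163 Traj counts (19.0%, 13.7% to 25.7%) in Smc3/Bcl6 tumor 5 and at most 10 counts in any other tumor. Traj37 had 29 of 163 (17.8%) in Smc3/Bcl6 tumor 5 and led in Bcl6 tumor 3 with 33 of 264 (12.5%). Some Traj gene leads in every tumor, and in the others with at least 132 Traj counts it held between 7.57% and 12.9%. The counts do not say whether Trav5-4 was joined to Traj45 or Traj37 in the same transcripts.

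Other Trav genes led by less. Trav8n-2 had 231 of 1427 counts in Bcl6 tumor 2 (16.2%), 31 of 490 in Smc3/Bcl6 tumor 2 (6.33%) and at most 1.78% in the other 4 tumors. Trav3-3 had 89 of 490 counts in Smc3/Bcl6 tumor 2 (18.2%) and 39 of 501 in Bcl6 tumor 3 (7.78%), where it also led. Trav14-3 had 166 of 1292 counts in Smc3/Bcl6 tumor 3 (12.8%), followed there by Trav14-1 with 123 (9.52%) and Trav17 with 106 (8.20%). Each of these tumors therefore had its own leading alpha gene, apart from Trav3-3 in a pair of tumors. Trav15-1-dv6-1, whose symbol marks use by the delta chain as well, had 14 of 81 counts in Smc3/Bcl6 tumor 4 (17.3%, 10.6% to 26.9%) and between 0.420% and 1.63% in the other 5. Trav12-2 was frequent in more tumors, with a mean of 4.91%, but had 0 of 304 counts in Smc3/Bcl6 tumor 5, which allows up to 0.987%. Trav1, the alpha gene of mucosal-associated invariant T cells, stayed between 0.612% and 2.20% (11 of 501 counts in Bcl6 tumor 3). Trav13-1 (mean 3.44%) and Trav14n-3 (highest share 1.75%) did not lead in any of these 6 tumors.

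Evenness was compared with the B-cell chains of the same tumors. It is the Shannon entropy of the shares divided by its maximum, so that 1 stands for equal use of all members and 0 for a single gene, taken as the expected value for 78 counts drawn from each chain. The Trbv evenness was 0.82, 0.84 and 0.88 in Bcl6 tumors 1 to 3 and 0.84, 0.82, 0.89, 0.86 and 0.82 in Smc3/Bcl6 tumors 2 to 6, against 0.95 for equal use at this depth. The tumors thus lay in a narrow range. The effective number of Trbv genes, the number of equally used genes that would give the same entropy, was between 12.05 and 15.2. The Trav evenness was 0.75 and 0.82 in Bcl6 tumors 2 and 3 and 0.74, 0.75, 0.72 and 0.64 in Smc3/Bcl6 tumors 2 to 5, against 0.89 for equal use. Smc3/Bcl6 tumor 5, with its Trav5-4 share, was the lowest, with an effective number of 13.7 genes against 19.2 to 28.5 in the other 5.

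**Figure D4:**
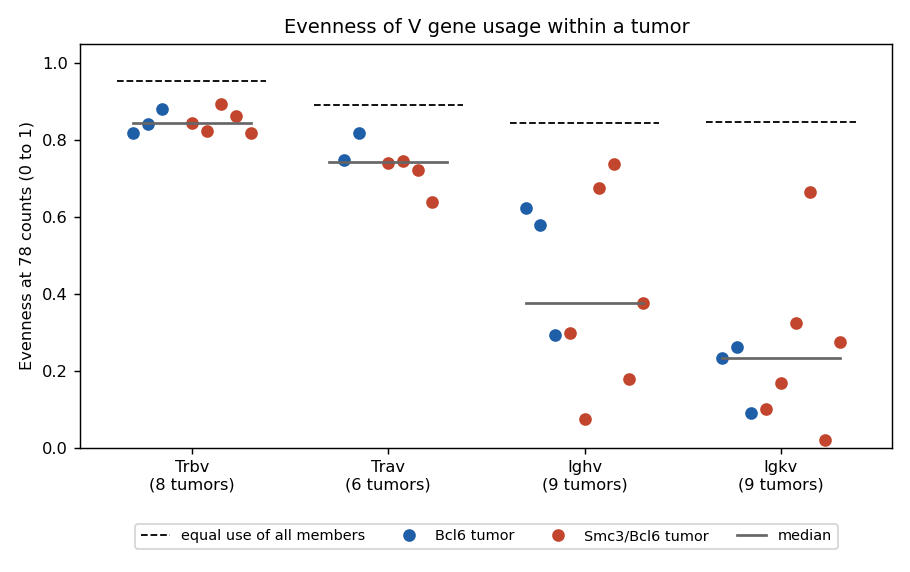
Evenness of V gene usage (0 to 1, at 78 counts) of the T-cell receptor chains Trbv and Trav and of the immunoglobulin chains Ighv and Igkv, 1 point per tumor, with the median (solid line) and the value for equal use of all members (dashed line). Trbv lay between 0.82 and 0.89 in 8 tumors, whereas Ighv spread from 0.07 to 0.74 and Igkv from 0.02 to 0.66 in 9 tumors.

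In the same libraries the B-cell chains were less even, with a wide spread. The leading Ighv gene held between 9.77% and 92.4% of the Ighv counts and the leading Igkv gene between 25.3% and 98.2% of the Igkv counts. The Trbv evenness exceeded the Ighv evenness in 8 of 8 tumors, by a median of 0.35 (0.15 to 0.77), and the Igkv evenness in 8 of 8, by 0.58 (0.23 to 0.84). The Trav evenness exceeded that of Igkv in 6 of 6 tumors, by a median of 0.53 (0.06 to 0.73), and that of Ighv in 5 of 6, by 0.31 (-0.02 to 0.67). The exception was Smc3/Bcl6 tumor 4, in which the B-cell chains were spread over many genes (evenness 0.74 for Ighv and 0.66 for Igkv), so a single dominant B-cell rearrangement was not seen there. The order of the chains depends on dividing by the number of genes, since there are 102 Ighv and 21 Trbv members. Without that division, the effective number of Ighv genes was larger than that of Trbv genes in 4 of the 8 tumors, Bcl6 tumors 1 (17.99 against 12.05) and 2 (14.7 against 13.0) and Smc3/Bcl6 tumors 3 (22.6 against 12.3) and 4 (30.5 against 15.2). For Igkv it was larger in 1 of 8, Smc3/Bcl6 tumor 4 (21.003). These differences are descriptions of each tumor with no test. Between tumors, the Ighv profiles overlapped by a median of 11.7% and the Igkv profiles by 3.58% in the 10 pairs in which Trbv overlapped by 70.1%. Single pairs overlapped far more, up to 74.7% for Ighv and 92.6% for Igkv, in Bcl6 tumor 3 and Smc3/Bcl6 tumor 5, which had the leading genes Ighv3-1 and Igkv5-39 in common. The Trav profiles overlapped by between 37.5% and 58.9%, on fewer counts. The overlap weights genes by their share, so leading genes count most. The median rank correlation of shares over the same pairs (Spearman's rho) ordered the chains differently. It was 0.70 for Trbv, 0.67 for Igkv, 0.53 for Ighv and 0.39 for Trav.

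The genotypes were compared next. The Trbv evenness was 0.847 ± 0.032 (SD, n = 3) in Bcl6 tumors and 0.849 ± 0.031 (SD, n = 5) in Smc3/Bcl6 tumors, with overlapping values. The summed Trbv level was lower in Smc3/Bcl6 tumors by 1.49 on the log2 CPM scale, on a spread of 2.73 (SD over 9 tumors), and the summed Trav level by 1.38 on a spread of 2.79. These differences lay within the spread of single tumors. They ranged from -2.87 to -0.63 for Trbv as each tumor was left out, and were -2.20 for Trbv and -1.92 for Trav without Smc3/Bcl6 tumor 2. With the replicates 1 to 3 paired (replicate block), they were -0.41 for Trbv and -0.88 for Trav. The Trav evenness was lower by 0.07 in the 4 Smc3/Bcl6 tumors than in the 2 Bcl6 tumors with enough counts, and the highest of the former (0.747) lay just below the lowest of the latter (0.749).

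Single V genes were tested in an edgeR fit over all genes with enough counts for its filter, which kept 40 of the 81 members (20 Trbv and 20 Trav). A gene was called when its unadjusted p was below 0.1 and its log2 fold change exceeded 0.56 in either direction, under which 1.28% of the 14057 genes tested were higher and 0.868% lower in Smc3/Bcl6 tumors. Of the members, 0 were higher and 2 were lower, both Trav genes. In Bcl6 tumors 1 to 3, the level of Trav14-2 was 0.0882, 3.02 and 1.98 CPM, and in Smc3/Bcl6 tumors 1 to 6 it was 0, 0.741, 0.783, 0, 0.395 and 0 CPM. Bcl6 tumors 2 and 3 were above all Smc3/Bcl6 tumors and Bcl6 tumor 1 was among them (log2 fold change -2.41, standard error 1.31, adjusted p = 1.00 by the quasi-likelihood test of edgeR, Benjamini-Hochberg adjusted). Trav14d-3-dv8 had 0, 1.84 and 0.851 CPM in the Bcl6 tumors and between 0 and 0.679 CPM in the Smc3/Bcl6 tumors, with the same overlap (log2 fold change -2.41, standard error 1.26, adjusted p = 1.00 in that edgeR test). They rest on 105 and 59 counts in total. When the replicates numbered 1 to 3 were paired between genotypes (replicate block), 1 member passed, Trav14-2, lower like 1.9% of all genes there, and DESeq2 called 0.

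**Figure D5:**
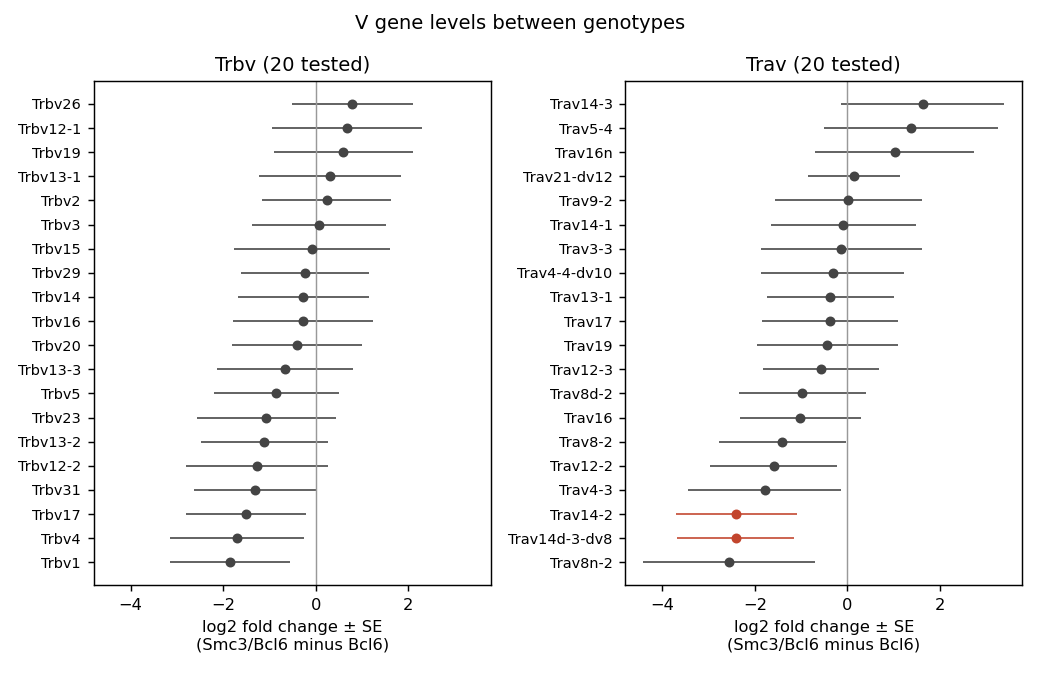
Log2 fold change (Smc3/Bcl6 minus Bcl6, points) with its standard error (bars) of the 20 Trbv and 20 Trav genes tested by edgeR, with the 2 genes past the thresholds in red. The bars of most genes cross 0, and the median was -0.34 for Trbv and -0.41 for Trav.

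The V genes as a group had fold changes below 0 more often than above it. Of the 20 Trbv genes tested, 14 had a negative and 6 a positive value (median -0.34), and of the 20 Trav genes 15 and 5 (median -0.41). Over all 14057 genes tested, 5984 had a negative and 8073 a positive value (median 0.06). The V genes are transcribed in the same T cells, so their signs are not independent of each other. Their median standard error was 1.43 for Trbv and 1.499 for Trav, against 0.46 over all genes. At an unadjusted p below 0.05, 0 of the 40 members passed (0.562% of all genes did), at an adjusted p below 0.05 0 members and 0 genes passed, and for 0 members the genotypes did not overlap (0.484% of all genes). The smallest unadjusted p of a Trbv gene was 0.182, for Trbv1. The constant genes gave log2 fold changes of -0.76 for Trac (standard error 1.29), -0.84 for Trbc1 (1.38) and -0.30 for Trbc2 (1.42), none past the thresholds. With the mean T-cell marker level as a covariate, 2 members passed, Trbv12-1 higher (log2 fold change 1.65) and Trav14-2 lower (-1.49), beside 1.51% of all genes higher and 1.17% lower in that fit. Rag1 and Rag2, which cut the V gene segments during recombination, had at most 4 counts in any tumor.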

How the data were processed

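Gene counts from RNA-seq of 9 lymphomas (3 Bcl6, 6 Smc3/Bcl6) were used, 1 library each. The authors made the libraries with Illumina TruSeq kits and ran an nf-core workflow in which STAR placed reads on mm10 with Gencode gene models and featureCounts tallied reads for every gene. They deposited raw counts. Read length, strand setting and the treatment of reads that match several genes were not given in the sources used here. Every column had a sample (0 without), and totals were 10156728 to 17774577 counts per library. Positions, coding lengths and sequences came from GENCODE M21 (GRCm38), a later annotation than that of the counts: 7 of the 81 members carried the same gene version, so lengths are approximate.

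The genotype comparison used edgeR 4.0.16 (R 4.3.3) with TMM scaling, its low-count filter, the quasi-likelihood test and adjustment after Benjamini and Hochberg across 14057 genes, at the thresholds of the paper. DESeq2 1.42.0, RLE size factors, no filter, a T-cell marker covariate, the replicate block and each tumor left out were alternatives. Labels number the replicates but do not say that same-numbered tumors belong together. Deviations of same-numbered tumors correlated at 0.443, 0.113 and 0.155. Tumors with different numbers were not compared in this way, so these values cannot show a pairing. The main fit was unpaired, and the replicate block served only as an alternative. The scripts were tested on simulated data. Evenness used the exact expected entropy at 78 counts, the smallest chain total of at least 50, and left out 1 tumor for Trbv and 3 for Trav. Named genes are the 8 of each chain with the highest mean share over 9 tumors, the leaders of any tumor, V genes of invariant T cells, members past the thresholds, and 3 per chain with the highest ratio of largest to second share. The members and lists were chosen with earlier results of these data known. Nothing says that tumors of a genotype were processed separately, so p-values measure the spread between these samples. Of the list of B-cell markers, 1 gene is not reported here.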

Additional observations from a re-analysis of the deposited data

Results flagged for a closer look

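In the Smc3/Bcl6 tumors with at least 50 counts of a chain, a tumor was flagged when its gap to the nearest tumor took most of the range (Dixon's 95% limit). Of 31 groups of values examined, 7 were flagged. Chance flags about 1 in 20 groups, but that rate does not apply here, because many of these genes were named for a high share in 1 tumor, which the flag restates. For Trbv, the leading share of Smc3/Bcl6 tumor 6 (29.5%, nearest 17.3%) rests on 78 counts. Trbv15 in Smc3/Bcl6 tumor 2 held 10.6% (nearest 2.56%), and Trbv20 in Smc3/Bcl6 tumor 4 held 3.55% (nearest 1.84%). For Trav, Trav5-4 in Smc3/Bcl6 tumor 5 held 37.8% (nearest 1.63%), and Trav3-3 in Smc3/Bcl6 tumor 2 held 18.2% (nearest 2.63%). In Smc3/Bcl6 tumor 4, Trav15-1-dv6-1 held 17.3% (nearest 1.63%) and Trav21-dv12 held 9.88% (nearest 2.63%), on 81 Trav counts. The Bcl6 tumors were too few for this rule.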

How the results depend on the processing

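The median Trbv evenness of 0.84 became 0.89 with all counts in place of 78 and 0.81 with genes summed by subgroup. It stayed between 0.842 and 0.844 as each tumor was left out. Counts per coding length also used all counts, and gave 0.889 beside 0.887 for all counts without that division. The median Trav evenness of 0.74 became 0.82 with all counts, 0.81 with genes of at least 50 counts and 0.82 with genes summed by subgroup. It stayed between 0.742 and 0.747 as each tumor was left out. Per coding length, again with all counts, it was 0.819 beside 0.821 without that division. The alternatives per coding length, and a leading share from tumors with at least 200 counts, were chosen after seeing the data. The median share of the leading Trbv gene rose from 16.6% to 24.1% with genes summed by subgroup. With the replicate block, the Trbv evenness difference between genotypes was -0.027, beside 0.002 in the unpaired comparison. The paired value is the mean over replicates 2 and 3 only, since Smc3/Bcl6 tumor 1 had 48 Trbv counts and no evenness value. In replicate 2 the evenness was 0.844 in the Smc3/Bcl6 tumor and 0.842 in the Bcl6 tumor, and in replicate 3 it was 0.825 and 0.882. The unpaired difference was near 0, and its sign also changed with all counts (-0.004). It lay between -0.013 and 0.019 as each tumor was left out. The count of 2 members called between genotypes became 12, all lower, of 81 tested without the filter on low counts. There, 3.07% of all genes were lower. The count was 1 of 40, lower, with RLE size factors (0.761% of all genes lower) and with the replicate block (1.9%). With DESeq2 it was 0 (0.719%). As each tumor was left out, it lay between 0 and 4. It was 4 of 47 tested without Bcl6 tumor 1 (1.64% of all genes lower). It was 2 of 35 without Smc3/Bcl6 tumor 2 (1.39%) and 2 of 27 without Smc3/Bcl6 tumor 3 (2.32%). All of these calls were lower. Without each of the other 6 it was 0 (0.44% to 1.11% of all genes lower), and the cause was not tested. The replicate block changed no other call. Evenness differences between chains, taken as medians over tumors, kept their direction under all alternatives run. Each of these divided by the number of genes. Without that division, the effective number was larger for Ighv than for Trbv in 4 of 8 tumors, and than for Trav in 2 of 6. Below 50 counts of a chain, depth limits the shares.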

Other observations

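The alpha V genes whose symbols mark use by the delta chain as well (9 members with -dv) were chosen for description after their values were seen. They held 35.8% of Trav counts in Smc3/Bcl6 tumor 4 (29 of 81, 95% Wilson interval 26.2% to 46.7%) and 33.3% in Smc3/Bcl6 tumor 6 (7 of 21, 17.2% to 54.6%). In the 5 tumors with over 200 Trav counts they held between 6.31% and 10.2%, and in Bcl6 tumor 1 and Smc3/Bcl6 tumor 1 they had 2 of 28 and 2 of 6 counts. The 5 delta-chain genes named Trdv, which are no members, had 38 and 22 counts in these tumors, that is 46.9 and 105 for each 100 Trav counts, against 1.84 to 9.98 in the 5 tumors with over 200 Trav counts, 21.4 (6 Trdv counts) in Bcl6 tumor 1 and 133 (8 Trdv counts) in Smc3/Bcl6 tumor 1. The gamma-chain constant genes (Tcrg-C1 to Tcrg-C4) stood at 62.7 and 86.4 counts for each 100 counts of Trbc1 and Trbc2 in Smc3/Bcl6 tumors 4 and 6, against 6.44 to 18.1 in the other 7. Genes of the gamma-delta receptor were thus high relative to those of the alpha-beta receptor in Smc3/Bcl6 tumors 4 and 6, on few counts. Only the gamma-chain ratio set them apart from all others. Smc3/Bcl6 tumor 1 had a -dv share of 33.3% and the highest Trdv ratio, on 6 Trav counts. In Smc3/Bcl6 tumors 4 and 6, 3 markers of natural killer cells (Ncr1, Klrb1c and Klra8) summed to 84.8 and 18.7 CPM. The other 7 had 1.04 to 41.2 CPM, so Smc3/Bcl6 tumor 6 lay within their range. Dntt, which adds bases at V gene junctions, had 51 and 95 counts in Smc3/Bcl6 tumors 4 and 6, against 5 to 38. The part of these in the receptor counts was not tested.

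Trbj1 genes took 81.6% of 125 Trbj counts in Smc3/Bcl6 tumor 4 and 79.3% of 29 in Smc3/Bcl6 tumor 6, against 30.9% to 55.8% in the 5 tumors with at least 172 Trbj counts, 31.6% of 19 in Bcl6 tumor 1 and 75% of 4 in Smc3/Bcl6 tumor 1. Foxp3, the regulatory T-cell factor, had 753 counts in Smc3/Bcl6 tumor 5, the tumor with the large Trav5-4 share, which is 41.9 for each 100 Cd3e counts, against 4.54 to 16.1 in the other 4 tumors with over 500 Trbv counts (73.2 against 2.14 to 24.0 for each 100 Cd3d counts). Smc3/Bcl6 tumor 1, with 28 Foxp3 counts, was nearly as high at 37.8 for each 100 Cd3e counts, and the remaining 3 tumors had between 2.05 and 14.8. Traj18, the J gene of invariant NKT cells, had 68 counts in Bcl6 tumor 2 and at most 30 in the other tumors, while Trav11 and Trav11d had 0 counts in all 9.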
